A study of Homo sapiens with 6 samples.

Results

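The balance of E-cadherin and N-cadherin and the regulators of the epithelial-mesenchymal transition (EMT) were followed through 10 genes chosen by name, CDH1, CDH2, EPCAM, ESRP1, GRHL2, SNAI1, SNAI2, ZEB1, ZEB2 and VIM. All 10 were found among the 58830 genes of the expression table, and 9 of them reached at least 1 TPM in at least 3 libraries and were tested. The RNA-seq libraries were of total RNA from definitive endoderm derived from human embryonic stem cells of the HuES8 line. The KD group (3 libraries) was endoderm in which GATA6-AS1, a long noncoding RNA antisense to GATA6, had been knocked down, and the DE group (3 libraries) was wild-type endoderm. Cells of both groups went through the same 3 days of differentiation in DMEM-F12 with 0.2% BSA, 1 day with 100 ng/mL Activin A plus 2.5 µM of the GSK3 inhibitor CHIR, and 2 days with Activin A alone. How the knockdown was made, whether KD is 1 clone and whether DE received a control vector remain unknown here. The replicates are not described as separate cultures, so the p-values rest on a spread between libraries that may be technical.

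Epithelial cells are held together by E-cadherin, and in EMT they lose it while gaining N-cadherin and the filament protein vimentin. Zinc-finger repressors of the SNAI and ZEB families silence the E-cadherin gene, whereas GRHL2 and the splicing factor ESRP1 maintain the epithelial state, and microRNAs of the miR-200 family and the ZEB factors repress each other. Pluripotent stem cells are epithelial and rich in E-cadherin. As they pass through the primitive streak stage towards definitive endoderm they take up an EMT-like programme in which N-cadherin is gained.

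GATA6-AS1 averaged 157 ± 27.3 TPM in KD and 374 ± 55.1 TPM in DE (SD, n = 3 each) and fell in KD (log2 change -1.26, limma adjusted p = 0.0128). The log2 change was -1.22 without DE replicate 1 and -1.30 without KD replicate 2, where it no longer passed (limma adjusted p = 0.0717 and 0.0612). GATA6, which encodes an endoderm transcription factor, averaged 218 ± 30.6 TPM in KD and 346 ± 52.8 TPM in DE. It did not pass (limma adjusted p = 0.0648) but did with the replicate block (0.005). In all, GATA6 passed in 6 of 18 alternatives, those without replicate 3 of both groups and without mitochondrial genes among them. All 12 endoderm markers examined were present in every library, the lowest value being 56.0 TPM for HHEX in KD replicate 3. TPM relate each gene to its length and to the library total, and keep no depth. The reads behind them, estimated from the steps between low values, ran from 18640816 to 24510590 in KD and from 18985418 to 23757167 in DE. Transcripts of mitochondrial DNA took 28.3% to 36.2% of TPM in KD and 24.6% to 38.0% in DE, with the highest share in replicate 3 of each group. Results are therefore also given without replicate 3 of both groups, or without mitochondrial genes, where that changes them.

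The promoters of CDH2, VIM and ZEB1, which stood lower in KD, are shown because SNAI and ZEB factors bind the E-box CACCTG. They are RefSeq sequences on GRCh38.p14, 5′ to 3′ on the strand of the gene, from 250 bases before to 50 bases after the start, with E-boxes on either strand (CACCTG or CAGGTG) in capitals. CDH2 is read at chr18:28177081-28177380 on the minus strand, VIM at chr10:17227991-17228290 on the plus strand, and ZEB1 at chr10:31318966-31319265 on the plus strand.
CDH2: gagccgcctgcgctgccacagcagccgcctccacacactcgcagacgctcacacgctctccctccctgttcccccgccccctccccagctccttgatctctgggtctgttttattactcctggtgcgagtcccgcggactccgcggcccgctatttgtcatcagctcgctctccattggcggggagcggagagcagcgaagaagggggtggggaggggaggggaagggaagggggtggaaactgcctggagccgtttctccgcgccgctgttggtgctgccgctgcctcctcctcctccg
VIM: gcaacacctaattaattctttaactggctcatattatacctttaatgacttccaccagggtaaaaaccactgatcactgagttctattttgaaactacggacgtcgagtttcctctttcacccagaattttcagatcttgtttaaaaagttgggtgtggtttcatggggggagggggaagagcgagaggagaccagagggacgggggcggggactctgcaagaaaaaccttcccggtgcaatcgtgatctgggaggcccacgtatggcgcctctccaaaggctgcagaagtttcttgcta
ZEB1: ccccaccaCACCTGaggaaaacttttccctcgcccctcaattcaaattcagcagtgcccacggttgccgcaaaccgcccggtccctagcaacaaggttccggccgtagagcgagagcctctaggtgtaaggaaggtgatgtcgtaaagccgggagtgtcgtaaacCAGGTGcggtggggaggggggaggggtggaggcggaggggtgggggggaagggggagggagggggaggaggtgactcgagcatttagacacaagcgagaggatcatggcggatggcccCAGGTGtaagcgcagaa

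The ZEB1 window held 3 E-boxes, and the CDH2 and VIM windows held none in these 300 bases. The motif was present in 20.6% of 35116 promoter windows of this length in the table. ZEB1 has 7 starts in that table, and the window shown is the one with the most E-boxes. Another ZEB1 window held 1 E-box, and the rest held none. CDH2 has 2 starts there, and the window not shown held no E-box either. Windows of CDH1, EPCAM and SNAI1 were not matched, and those of ESRP1, GRHL2 and SNAI2 were not examined. The GATA motif AGATAA (or TTATCT), present in 10.3% of all windows, was found in none of the 11 windows of CDH2, VIM, ZEB1 and ZEB2.

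**Figure D1:**
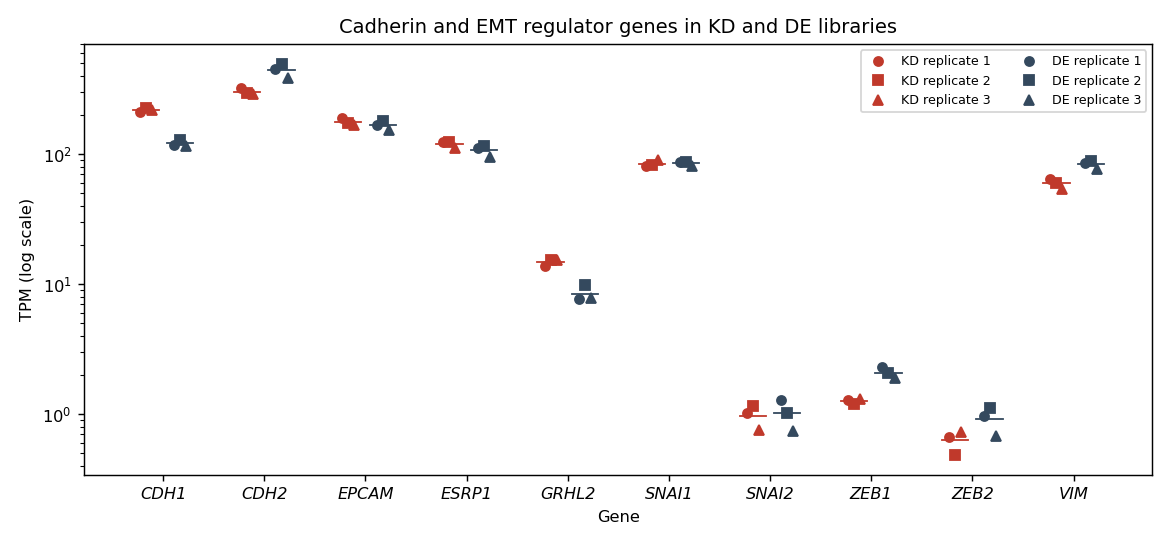
Expression of the 10 genes in TPM on a log scale. Each point is 1 library (circle, square and triangle for replicates 1, 2 and 3; KD red, DE dark blue) and each bar a group mean. CDH1 and GRHL2 lie higher in all KD libraries, and CDH2, ZEB1 and VIM lower.

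CDH2 was the most abundant of the 10 genes in KD, with a mean of 304 TPM, as it was in DE, with 446 TPM. CDH1 came next in KD at 219 TPM, followed by EPCAM at 177, ESRP1 at 120.04, SNAI1 at 84.3, VIM at 59.7 and GRHL2 at 14.8 TPM. ZEB1, SNAI2 and ZEB2 closed the order at 1.26, 0.971 and 0.628 TPM. In KD no library range overlapped that of the next gene in this order. In DE, EPCAM at 168 TPM stood above CDH1 at 121 TPM. The DE ranges of CDH1 and ESRP1 overlapped, as did those of SNAI1 and VIM and those of SNAI2 and ZEB2.

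CDH1, which encodes E-cadherin, rose in KD. In GENCODE 29 it lies on chromosome 16 from 68737225 to 68835548 on the plus strand of GRCh38. It had 211, 228 and 219 TPM in KD replicates 1 to 3, against 118, 130 and 115 TPM in DE replicates 1 to 3. The lowest KD library lay well above the highest DE library, and the KD mean of 219 ± 8.12 TPM was 1.81 times the DE mean of 121 ± 7.71 TPM (SD, n = 3 each). The log2 change of TPM plus 1 was 0.85 (SE 0.0877, 95% interval 0.65 to 1.06, limma adjusted p = 0.00572). In bulk RNA, more cells of a type and more RNA per cell cannot be told apart. Without KD replicate 2 the adjusted p was 0.0508, and without each of the other 5 libraries it ran from 0.0115 to 0.0488.

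CDH2, which encodes N-cadherin, stood lower in KD and missed the threshold by little. It lies on chromosome 18 (minus strand, 27950966 to 28177446). It had 324, 298 and 289 TPM in KD replicates 1 to 3, against 450.5, 499 and 387 TPM in DE replicates 1 to 3. No KD library reached the lowest DE library, and the DE libraries were spread over a wider range. The mean was 304 ± 18.0 TPM in KD and 446 ± 56.2 TPM in DE (SD, n = 3 each). The log2 change was -0.55 (SE 0.114, 95% interval -0.81 to -0.28, limma adjusted p = 0.0522). Taking replicate numbers as blocks, it passed (limma adjusted p = 0.00839), as it did without replicate 3 of both groups (0.0161), without DE replicate 3 alone (0.0263) and without mitochondrial genes (0.00341). In all, CDH2 passed in 7 of 18 alternatives. Its limma adjusted p was 0.132 without a filter on low values. Without each single library other than DE replicate 3 it ran from 0.122 to 0.22.

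The CDH1 to CDH2 ratio, in which the library total cancels out, was higher in every KD library. It was 0.653, 0.764 and 0.756 in KD replicates 1 to 3, against 0.263, 0.260 and 0.298 in DE replicates 1 to 3. N-cadherin RNA exceeded E-cadherin RNA in all 6 libraries, by a smaller margin in KD. The ratio averaged 0.724 ± 0.0620 in KD and 0.273 ± 0.0209 in DE (SD, n = 3 each). On the log2 scale the difference was 1.40, a 2.65-fold higher ratio in KD. A 2-sided exact permutation test gave p = 0.1, which is the lowest value possible with 3 libraries a group. Between same-numbered libraries the ratio in KD was 2.48, 2.94 and 2.54 times that in DE. CDH1 contributed 41.9% ± 2.13 of the summed TPM of the pair in KD and 21.5% ± 1.28 in DE. The sum itself was 523 ± 13.9 TPM in KD and 567 ± 63.4 TPM in DE, with overlapping ranges.

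**Figure D2:**
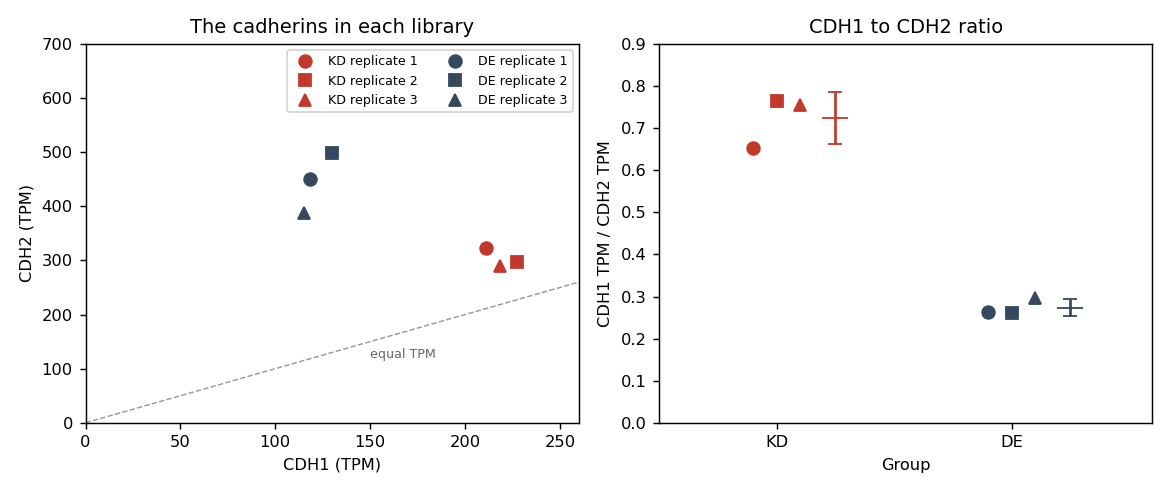
Left, CDH2 against CDH1 in TPM for each library, with a dashed line at equal TPM; right, the CDH1 to CDH2 ratio of each library with the group mean and SD (n = 3). The KD libraries sit at ratios of 0.653 to 0.764 and the DE libraries at 0.260 to 0.298.

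Among the other epithelial genes, GRHL2 rose in KD, while EPCAM and ESRP1 did not pass. GRHL2, a grainyhead transcription factor that activates epithelial junction genes, lies on chromosome 8 from 101492432 to 101669726. It had 13.8, 15.5 and 15.2 TPM in KD replicates 1 to 3, against 7.68, 9.77 and 7.84 TPM in DE replicates 1 to 3. The groups did not overlap, and the KD mean of 14.8 ± 0.873 TPM was 1.76 times the DE mean of 8.43 ± 1.16 TPM (SD, n = 3 each). The log2 change was 0.75 (SE 0.128, 95% interval 0.45 to 1.05, limma adjusted p = 0.0269). Without a filter on low values the limma adjusted p was 0.0661. It was 0.0832 without KD replicate 1, 0.148 without KD replicate 2, 0.0852 without KD replicate 3 and 0.141 without DE replicate 1.

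EPCAM, an epithelial adhesion molecule that stem cells also carry, lies on chromosome 2 from 47345158 to 47387601. It had 189, 174 and 167 TPM in KD replicates 1 to 3, against 169, 182 and 153 TPM in DE replicates 1 to 3. The groups overlapped, and the log2 change was 0.08 (95% interval -0.16 to 0.31, limma adjusted p = 0.855). ESRP1, which directs epithelial splice forms, lies on chromosome 8 from 94641074 to 94707466. It had 125, 123 and 112 TPM in KD replicates 1 to 3, against 112, 115 and 95.5 TPM in DE replicates 1 to 3. The ranges met, and the log2 change was 0.16 (95% interval -0.09 to 0.41, limma adjusted p = 0.590). The upper bounds of both intervals lie below the estimates for CDH1 and GRHL2. Splice forms themselves cannot be seen in a table of genes. The paralog ESRP2 averaged 30.4 ± 2.38 TPM in KD and 30.6 ± 2.99 TPM in DE (log2 change -0.01, 95% interval -0.28 to 0.26).

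SNAI1 was the only one of the repressors among the 10 genes with more than 3 TPM in any library, and it showed no detectable difference. It encodes Snail, which represses CDH1, and lies on chromosome 20 from 49982999 to 49988886. It had 81.0, 82.5 and 89.5 TPM in KD replicates 1 to 3, against 87.5, 87.3 and 81.1 TPM in DE replicates 1 to 3. The groups overlapped almost completely, with a log2 change of -0.02 and a 95% interval of -0.22 to 0.19 (limma adjusted p = 0.980). The sign of this small value turned when single libraries were left out.

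ZEB1, a repressor of CDH1, lies on chromosome 10 from 31318495 to 31529814 on the plus strand. It had 1.29, 1.19 and 1.30 TPM in KD replicates 1 to 3, against 2.29, 2.05 and 1.88 TPM in DE replicates 1 to 3. The groups did not overlap, and KD had on average 0.607 of the DE level. These values stood for an estimated 63, 67 and 91 reads in KD and 142, 114 and 105 reads in DE. The log2 change of TPM plus 1 was -0.44 (95% interval -0.81 to -0.07), which understates a change at so low a level, and it did not pass (limma adjusted p = 0.223, unadjusted 0.0248). It did not pass under any alternative tried either, with adjusted p from 0.0854 to 0.579. ZEB1-AS1, which shares 366 exonic bases with ZEB1 on the other strand, had 3.44 ± 0.495 TPM in KD and 3.57 ± 0.634 TPM in DE, and whether reads were counted by strand was not given in the sources used here.

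SNAI2, which encodes Slug, lies on chromosome 8 from 48917604 to 48921740. It had 1.01, 1.14 and 0.759 TPM in KD replicates 1 to 3, against 1.29, 1.02 and 0.746 TPM in DE replicates 1 to 3. These overlapping values came to an estimated 19.32, 25.26 and 20.81 reads in KD and 31.21, 22.3 and 16.35 in DE. Such values are not whole reads, so the exon length used may differ from that behind the TPM, and true counts may differ. The log2 change of TPM plus 1 was -0.03 (95% interval -0.49 to 0.43), a scale that understates changes at so low a level. A difference of moderate size was thus not detectable at this depth. ZEB2, the paralog of ZEB1, lies on chromosome 2 from 144364364 to 144524583 and had 0.670, 0.482 and 0.732 TPM in KD replicates 1 to 3, against 0.961, 1.11 and 0.677 TPM in DE replicates 1 to 3. It did not reach the filter on low values and was not tested. Its estimates over long exons, 94.7, 78.71 and 148.3 reads in KD and 172.3, 179.1 and 109.5 in DE, also missed whole reads. Its groups overlapped at KD replicate 3 and DE replicate 3.

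VIM, which encodes the intermediate filament protein vimentin, stood lower in KD and also missed the threshold. It lies on chromosome 10 from 17228259 to 17237593 on the plus strand. It had 64.3, 60.4 and 54.4 TPM in KD replicates 1 to 3, against 86.1, 89.3 and 76.5 TPM in DE replicates 1 to 3. The groups did not overlap, and the KD mean of 59.7 ± 4.97 TPM was 0.711 of the DE mean of 84.0 ± 6.63 TPM (SD, n = 3 each). The log2 change was -0.49 (SE 0.107, 95% interval -0.74 to -0.24, limma adjusted p = 0.0599). It passed with the replicate block (limma adjusted p = 0.00559), without replicate 3 of both groups (0.0175), without DE replicate 3 alone (0.0428) and without mitochondrial genes (0.00369). In all, VIM passed in 6 of 18 alternatives. Its limma adjusted p was 0.117 without a filter on low values. Without each single library other than DE replicate 3 it ran from 0.131 to 0.249. VIM-AS1, which shares 641 exonic bases with VIM on the other strand, had 1.20 ± 0.253 TPM in KD and 0.629 ± 0.0715 TPM in DE, far below VIM itself.

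Of the 9 members tested, 2 rose (CDH1 and GRHL2), 0 fell and 7 did not pass, beside 1.77% of all 17711 tested genes that rose and 1.5% that fell by the same limma test. The called share in either direction was 3.27% of all tested genes. At an unadjusted p under 0.05, 2 members stood higher and 3 (CDH2, VIM and ZEB1) lower, beside 7.27% of all tested genes higher and 8.15% lower, the shares against which the unadjusted counts of the lists further on can be read. With the replicate number as a block, 2 rose and 2 fell (CDH2 and VIM), beside 5.88% of all tested genes that rose and 6.62% that fell. Without replicate 3 of both groups the same 4 genes passed, beside 2.86% of all genes higher and 3.98% lower. Groups did not overlap for 5 of the 9, 2 higher and 3 lower in KD, beside 20.8% of all tested genes, 10.1% higher and 10.7% lower. In the fits that moved the members' count, the shares of all genes moved too. They were 4.9% higher and 5.02% lower under quantile normalization, 5.06% and 4.84% under median-ratio scaling, and 4.98% and 4.64% without mitochondrial genes. They were 2.03% higher and 2.13% lower among genes with a mean of at least 5 TPM, 0.357% and 0.289% without a filter, and 0.412% and 0.186% at a threshold of 0.01. With single libraries left out, the shares higher and lower were 0.491% and 0.469% without KD replicate 1, 0.344% and 0.147% without KD replicate 2, and 0.87% and 0.553% without KD replicate 3. They were 0.423% and 0.136% without DE replicate 1, 0.881% and 0.316% without DE replicate 2, and 1.4% and 2.04% without DE replicate 3. The median log2 change of the 9 was -0.02, and that of all tested genes -0.01.

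**Figure D3:**
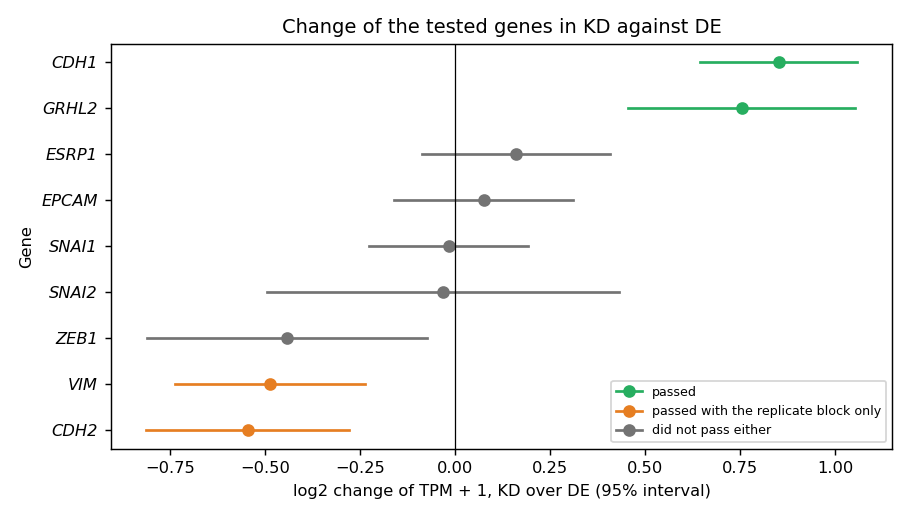
Log2 change of TPM plus 1, KD over DE, with the 95% interval of the limma fit for the 9 genes tested. CDH1 (0.85) and GRHL2 (0.75) passed, CDH2 (-0.55) and VIM (-0.49) did not pass in this fit but did with the replicate block, and the other 5 did not pass in either fit.

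**Figure D4:**
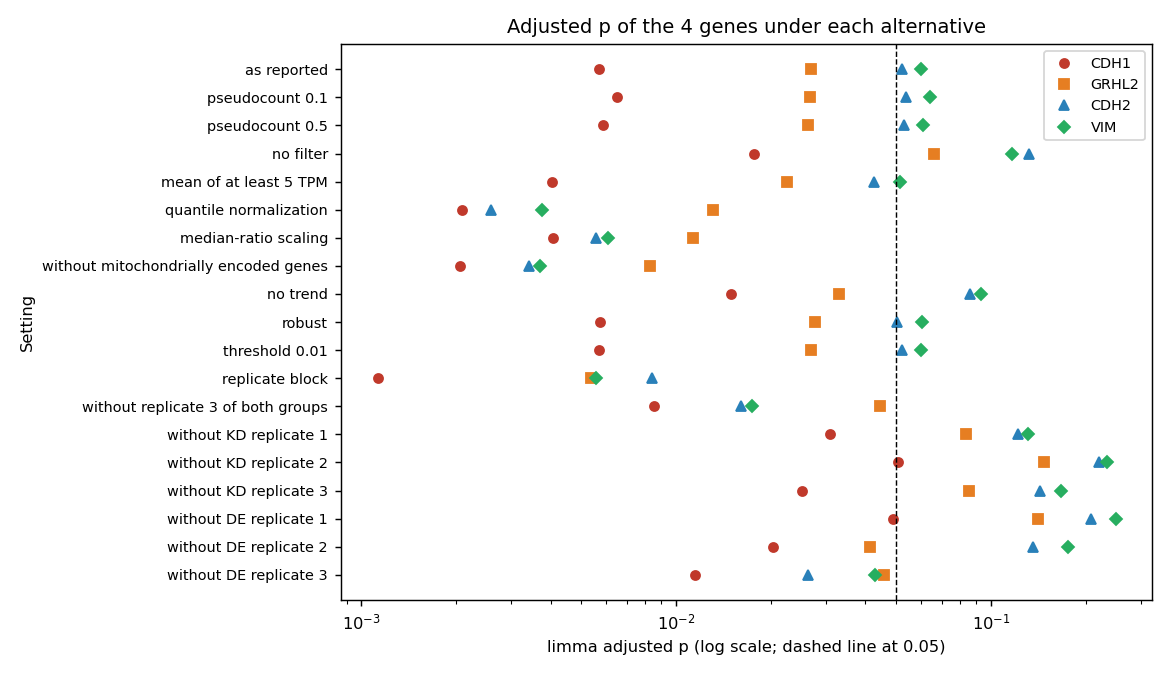
Limma adjusted p of CDH1, GRHL2, CDH2 and VIM on a log scale under each setting, with a dashed line at 0.05. CDH1 lies left of the line in every setting except without KD replicate 2 (0.0508), while CDH2 and VIM cross it with the replicate block, under quantile normalization and median-ratio scaling, without mitochondrial genes, and without replicate 3 of DE or of both groups.

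In the wider cadherin family of 23 genes, 8 were tested, 2 rose and 0 fell by limma, 2 stood higher and 2 lower at an unadjusted p under 0.05, and 3 rose and 1 fell with the replicate block. CDH10, the other gene of the 2 that stood lower, had a log2 change of -0.52 (limma adjusted p = 0.311). The second that rose was CDH11, a cadherin typical of mesenchymal cells, with 5.17 ± 0.861 TPM in KD and 2.04 ± 0.433 TPM in DE (SD, n = 3 each), a log2 change of 1.03 (limma adjusted p = 0.0284). It thus went the same way as E-cadherin, and its call was kept without DE replicate 3 and lost without any one of the other 5 libraries (0.0711 to 0.140). CDH3, which encodes the epithelial P-cadherin, had 151 ± 9.73 TPM in KD and 130 ± 10.03 TPM in DE and did not pass (limma adjusted p = 0.374). It passed in 3 of 18 alternatives, the replicate block (0.0406) among them.

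Genes for the proteins that link cadherins to the cytoskeleton did not pass. Of 12 catenins and other adherens junction genes tested, 0 rose and 0 fell by limma (1 stood higher and 1 lower at an unadjusted p under 0.05, and 1 rose and 1 fell with the replicate block), with a median log2 change of 0.02. CTNNB1, which encodes β-catenin, had 248 ± 33.5 TPM in KD and 292 ± 54.7 TPM in DE. CTNNA1, the α-catenin gene, had 197 ± 10.4 TPM in KD and 184 ± 22.3 TPM in DE, and CTNND1, the p120-catenin gene, 164 ± 8.66 TPM in KD and 154 ± 16.02 TPM in DE. The nectin genes PVRL1 (log2 change 0.41) and PVRL2 (-0.27) and the catenin gene CTNND2 (0.31) had the smallest p of the list. Of 8 desmosome genes, 0 rose and 0 fell by limma (2 higher and 1 lower at an unadjusted p under 0.05). DSC3 (log2 change 0.63) and PKP3 (0.48) stood higher without passing. The plakophilin PKP2, at 23.5 ± 2.73 TPM in KD and 36.6 ± 6.64 TPM in DE, fell with the replicate block (limma adjusted p = 0.101, with the block 0.00805). PKP2 passed in 6 of 18 alternatives, the block among them. Among 11 genes for shedding and turnover of cadherins, 0 rose and 0 fell (2 higher and 0 lower at an unadjusted p under 0.05), and with the block ADAM9 and ADAM15 rose (log2 changes 0.39 and 0.47).

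Other epithelial regulators passed in both directions. Of 9 tested, 2 rose and 1 fell, with a median log2 change of 0.09. TFAP2C, an AP-2 transcription factor, had 22.3 ± 1.49 TPM in KD and 13.2 ± 1.08 TPM in DE (limma adjusted p = 0.0197), and RBM47, an RNA-binding protein, 38.1 ± 2.55 TPM in KD and 24.6 ± 3.39 TPM in DE (0.0483). KLF5, a Krüppel-like factor of epithelia and stem cells, fell to 4.68 ± 0.0912 TPM in KD, against 7.66 ± 0.496 TPM in DE (limma adjusted p = 0.0404). The call of TFAP2C was kept only without DE replicate 3, and those of RBM47 and KLF5 were lost when any 1 library was left out. OVOL2, a repressor of ZEB1, had 6.56 ± 0.463 TPM in KD and 4.05 ± 0.301 TPM in DE and did not pass (limma adjusted p = 0.0574). It passed in 5 of 18 alternatives, the replicate block (0.0170) among them. Of 19 EPCAM partners and polarity genes, ST14, the protease matriptase, rose to 20.8 ± 2.29 TPM in KD, against 11.4 ± 1.46 TPM in DE (limma adjusted p = 0.0254). Its adjusted p was 0.105 without KD replicate 1, 0.140 if KD replicate 2 was left out and 0.129 for DE replicate 1. Of the 19, 1 rose and 0 fell by limma, 4 stood higher and 0 lower at an unadjusted p under 0.05, and 4 rose and 1 fell with the block.

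Of 8 other EMT transcription factors tested, GSC and KLF8 fell in KD and 0 rose by limma (2 higher and 2 lower at an unadjusted p under 0.05, and the same counts with the block). SNAI3, a paralog of SNAI1, had 5.60 ± 1.64 TPM in KD and 2.45 ± 0.643 TPM in DE and did not pass (limma adjusted p = 0.0873). It passed in 4 of 17 alternatives, the replicate block (0.0214) among them. GSC, a homeobox factor of the organizer and mesendoderm, had 284 ± 9.28 TPM in KD and 399 ± 18.8 TPM in DE (log2 change -0.49, limma adjusted p = 0.0254). KLF8, a Krüppel-like repressor of CDH1, had 58.7 ± 5.28 TPM in KD and 90.8 ± 7.40 TPM in DE (log2 change -0.62, limma adjusted p = 0.0294). Both calls were kept without DE replicate 3 and lost without any one of the other 5 libraries. TWIST1, named after its values were seen, did not reach the filter, at 0.553 ± 0.600 TPM in KD and 0.553 ± 0.296 TPM in DE. Of 12 corepressors with which SNAI and ZEB proteins act, 0 rose and 0 fell by limma (1 higher and 1 lower at an unadjusted p under 0.05), and with the block CTBP2 rose (log2 change 0.36) and AJUBA fell (-0.36), while WTIP (-0.32) did not pass in either fit. Of the 5 precursors of the miR-200 family, MIR200A, MIR429, MIR200C and MIR141 were listed at 0 in all 6 libraries. MIR200B had 1.38 TPM in KD replicate 2 and was listed at 0 in the other 5 libraries, and such short features say little of the mature microRNAs.

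Mesenchymal genes were mixed. Of 18 tested, CALD1 rose and 0 fell by limma, while 6 stood lower at an unadjusted p under 0.05 and 3 rose and 6 fell with the replicate block. The median log2 change was -0.25, beside -0.01 for all tested genes. CALD1, which encodes the actin-binding caldesmon, had 69.8 ± 2.36 TPM in KD and 40.5 ± 3.89 TPM in DE (limma adjusted p = 0.0131, lost without DE replicate 1 at 0.0841, KD replicate 1 at 0.0627 and KD replicate 2 at 0.0853). Fibronectin (FN1) had 172 ± 8.02 TPM in KD and 221 ± 14.8 TPM in DE and did not pass (limma adjusted p = 0.0925). It passed in 4 of 18 alternatives, the replicate block (0.0115) among them. Among 10 intermediate filament and lamin genes tested, VIM included, KRT19 fell and INA rose (2 higher and 3 lower at an unadjusted p under 0.05), and with the block 1 rose and 3 fell. KRT8, a keratin of simple epithelia, had 269 ± 7.78 TPM in KD and 344 ± 18.7 TPM in DE (limma adjusted p = 0.0726, with the block 0.0161). KRT8 passed in 3 of 18 alternatives, the block among them. KRT19, another such keratin, had 122 ± 8.12 TPM in KD and 186 ± 14.2 TPM in DE (limma adjusted p = 0.0227), and INA, the neuronal filament internexin, 26.3 ± 3.60 TPM in KD and 15.1 ± 1.80 TPM in DE (0.0366). The call of KRT19 was kept only without DE replicate 3, and that of INA was lost when any 1 library was left out.

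**Figure D5:**
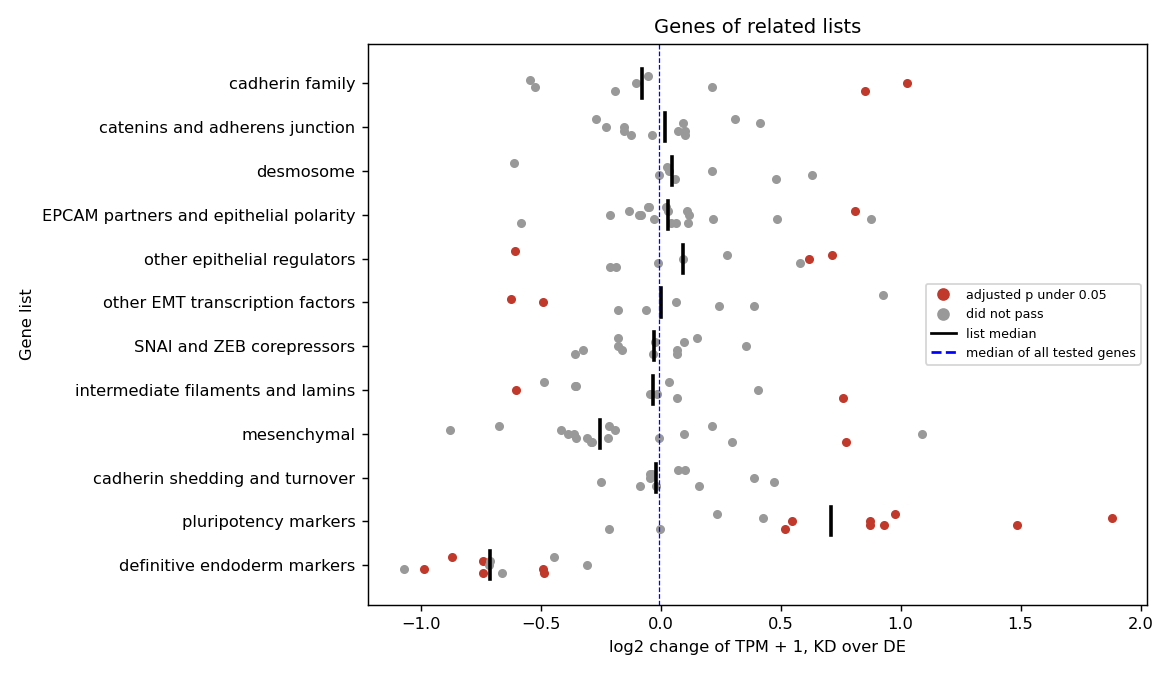
Log2 change of TPM plus 1, KD over DE, for the tested genes of 12 lists. Each point is 1 gene (red, limma adjusted p under 0.05), black bars are list medians and the dashed line is the median of all tested genes (-0.01); pluripotency markers have a median of 0.71 and endoderm markers of -0.71.

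Most markers of stem cells moved with CDH1 and GRHL2. Of 12 pluripotency markers, 8 rose and 0 fell by limma (9 higher and 0 lower at an unadjusted p under 0.05, and 9 rose with the block, PRDM14 being the one added), and their summed level was 5069 to 5640 TPM in KD and 3544 to 4433 TPM in DE. None was at 0 in any group. The 8 that rose were POU5F1, NANOG, SOX2, DPPA2, DPPA4, ZFP42, ESRG and DNMT3B, with log2 changes of 0.52 for DNMT3B to 1.88 for ESRG. The 4 that did not pass were PRDM14 (log2 change 0.43), L1TD1 (0.23), LIN28A (-0.0027) and TDGF1 (-0.22). TDGF1 thus stood lower in KD, and LIN28A was almost level, at 1006 TPM in KD and 1013 TPM in DE. POU5F1, which encodes OCT4, had 1247 ± 105 TPM in KD and 682 ± 78.3 TPM in DE (SD, n = 3 each). Of 12 definitive endoderm markers, 6 fell and 0 rose by limma (12 lower and 0 higher at an unadjusted p under 0.05, and 12 fell with the block), with a summed level of 18828 to 20699 TPM in KD and 26028 to 29824 TPM in DE. Most of that sum was CER1, a secreted inhibitor of Nodal, with 16124 to 17651 TPM in KD and 22060 to 25177 TPM in DE. The 6 that fell were CXCR4, GATA4, FOXA2, OTX2, GSC and CER1, with log2 changes of -0.99 for CXCR4 to -0.49 for CER1. SOX17 had the largest negative log2 change of the 12 (-1.07) but did not pass (limma adjusted p = 0.053, with the block 0.00757). It averaged 265 ± 73.3 TPM in KD and 551 ± 115 TPM in DE and passed in 7 of 18 alternatives. Pluripotency markers that rose numbered 3 when KD replicate 1, KD replicate 2 or DE replicate 1 was left out, and 5 to 7 without each of the other 3 libraries. Endoderm markers that fell numbered 0 without DE replicate 1 or KD replicate 2, 3 without DE replicate 2 or KD replicate 3, 5 without KD replicate 1 and 8 without DE replicate 3. Of 6 fibroblast markers tested, THY1 rose and 0 fell by limma (1 higher and 1 lower at an unadjusted p under 0.05), FBLN1 fell with the block (limma adjusted p = 0.116, with the block 0.0046), and DCN, LUM and COL3A1 had mean levels below 1 TPM in both groups. THY1, a surface protein that stem cells also carry, had 41.4 ± 3.61 TPM in KD and 13.04 ± 1.55 TPM in DE (limma adjusted p = 0.00271). Of 7 streak and mesoderm markers tested, T, KDR and TBX5 rose and HAND1 fell. KDR did not pass with any 1 library left out (limma adjusted p 0.0512 to 0.206), T passed without DE replicate 2 or DE replicate 3 alone, TBX5 did not pass without KD replicate 2 (0.0508) and HAND1 did not without DE replicate 1 (0.0717). Of 5 neuroectoderm markers, 0 rose and 0 fell by limma (2 higher and 1 lower at an unadjusted p under 0.05), and SIX3 (log2 change -0.34), NES (0.41) and ZIC1 (0.26) had the smallest p. The share of these marker changes in the values of CDH1, CDH2, GRHL2 and VIM was not tested.

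Among the genes nearest to CDH1 in pattern, by the root mean square distance of centred log2 values over the 6 libraries, were SCG3 (0.02), SCNN1A (0.0384), PPP1R1B (0.0419) and DYSF (0.0510). SCNN1A, an epithelial sodium channel subunit, had 89.1 ± 3.27 TPM in KD and 49.8 ± 1.61 TPM in DE. Nearest to CDH2 were JAKMIP1 (0.0314), C1orf115 (0.0373), ENTPD4 (0.0378), EDA (0.0414) and FBXO34 (0.0420). JAKMIP1 had 20.5 ± 1.66 TPM in KD and 30.3 ± 3.86 TPM in DE. Nearest to VIM were SETD7 (0.0179), FEZ1 (0.0180), ZNF737 (0.0193), GLT1D1 (0.0327) and GID4 (0.0370). FEZ1 had 80.2 ± 5.50 TPM in KD and 114 ± 10.2 TPM in DE.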

How the data were processed

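Values were taken as the authors deposited them, in TPM, with 58830 rows and 6 libraries whose columns each sum to 1000000. HISAT2 2.1.0, featureCounts, DESeq2 and GRCh38 appear, with no role, per the submitters' processing notes. Annotation release, strand setting and filters were not given in the sources used here. Altogether 17711 genes reached 1 TPM in 3 or more libraries and were tested on log2(TPM + 1) with limma 3.58.1 in R 4.3.3 (eBayes with trend, 2-sided, Benjamini-Hochberg over all genes tested, threshold 0.05). The fit was tested on simulated data. The ratio had an exact permutation test. Same-numbered libraries correlated at 0.108, 0.144 and 0.347 after removal of group means, all above the limit of 0.1, so block values are given where they change a call. The pairing comes from this check, not from a label. KD replicate 1 correlated higher with DE replicate 2, at 0.121, than with DE replicate 1, so the check does not establish pairs. Depth was estimated with exon lengths of GENCODE 29 for 37138 genes (88.7% to 89.5% of low values within 0.02 of whole reads). The members and lists were chosen with earlier results of these data known. List genes past the threshold were named, or else up to 3 with the smallest p, and for CDH1, CDH2 and VIM the 5 genes nearest in pattern. Of the genes this rule selects, 2 are not reported here. Outside this rule, CTNNA1, CTNNB1, CTNND1, CDH3, CDH10, OVOL2, ESRP2, SNAI3, TWIST1, FN1, KRT8, PRDM14, FBLN1, MIR200B, DCN, LUM, COL3A1 and HHEX were named after their values were seen. So were L1TD1, LIN28A, TDGF1 and SOX17. Symbols of AFDN, NECTIN1, NECTIN2 and PATJ were matched through RefSeq synonyms, and NECTIN3 and NECTIN4 were not matched. Python 3.11.15 with scipy 1.17.1 served for the rest.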

Additional observations from a re-analysis of the deposited data

How the results depend on the processing

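Over all genes, 314 rose and 265 fell. These counts were 132 and 107 without a filter, 867 and 889 under quantile normalization, 896 and 857 under median-ratio scaling, 880 and 820 without mitochondrial genes, 73 and 33 at a threshold of 0.01, 1042 and 1173 with the replicate block, and 507 and 705 without replicate 3 of both groups. With 1 library left out they ran from 61 to 248 and from 24 to 362. Of the members, 2 rose, but 1 without a filter, 1 at a threshold of 0.01 and between 0 and 2 with 1 library left out. None fell, but 1 (CDH2) among genes with a mean of at least 5 TPM, and 2 (CDH2 and VIM) under quantile normalization, under median-ratio scaling, without mitochondrial genes, without replicate 3 of both groups and with the replicate block, and 0 to 2 when 1 library was left out. The cause of these shifts was not tested. The log2 difference of the CDH1 to CDH2 ratio kept its direction in every alternative, from 1.36 to 1.48. Scaling of a library cancels in the ratio and the groups do not overlap. Rescaling or leaving out libraries could therefore not have reversed it. With same-numbered libraries paired, an exact sign-flip test gave 0.25, the smallest p that 3 pairs allow. With 1 library left out, SNAI1 ran from -0.0595 to 0.0119 and SNAI2 from -0.131 to 0.0634 in log2 change. SNAI1 turned positive without KD replicate 1 (0.0119), DE replicate 1 (0.00216) or DE replicate 2 (0.00092), and SNAI2 without KD replicate 3 (0.049) or DE replicate 1 (0.0634). Median shifts of all genes stayed within 0.1 on the log2 scale except without DE replicate 3 (-0.10). Depth limits SNAI2 most, with an estimated 16 to 31 reads a library, a rough range because its estimates missed whole reads.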

Other observations

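Beyond the 8 cadherins tested, 15 of the 23 family members did not reach the filter. Among these, CDH20 had 0.307 ± 0.183 TPM in KD and 1.23 ± 0.345 TPM in DE (SD, n = 3 each), without overlap between the groups and without a test. CDH5, the cadherin of endothelial cells, had 0.0701 ± 0.0374 TPM in KD and 0.110 ± 0.0435 TPM in DE, and CDH17, a cadherin of the intestinal epithelium, 0.0625 ± 0.0166 TPM in KD and 0.104 ± 0.0276 TPM in DE. These genes were named after their values were seen.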
